A study of Mus musculus with 4 samples.

Results

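The oogenesins (Oog) and Prame-like genes (Pramel and Pramef) of the mouse were described in 2-cell embryos cultured with or without dimethyl sulfoxide (DMSO). Members were the rows of the expression table whose mouse gene name starts with Pramel or Pramef, or is Oog followed by a digit. This rule took 17 of the 30049 genes in the table, 4 of them Oog, 7 Pramel and 6 Pramef genes. Of these, 15 were above 0 in every library, and Oog1 and a pseudogene named Pramel were listed at 0 in all 4 libraries. The 15 detected members made up between 0.226% and 0.669% of the summed expression of a library. An 18th mouse gene name, that of the antisense gene Pramef12os, fits the name pattern but has no row in the expression table.

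PRAME proteins are built from leucine-rich repeats, and human PRAME, first described as a tumour antigen, serves as a substrate receptor of the Cullin 2 ubiquitin ligase. In the mouse the family has expanded into tandem copies that are used mainly in germ cells and in the early embryo. Oogenesins are known as oocyte proteins, while Pramel6 and Pramel7 are known from pluripotent cells, where Pramel7 directs the DNA methylation factor Uhrf1 to degradation.

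Wild-type embryos of BDF1 crosses (BDF1 mice being the F1 of C57BL/6 and DBA/2) were taken from mated females after gonadotropin injection, at 18 h after human chorionic gonadotropin as the labels give it. Control zygotes then spent 24 h in KSOM medium, which is made for the culture of preimplantation embryos, and DMSO zygotes spent them in KSOM with 2% DMSO. For each group 50 embryos at the 2-cell stage were collected, and 2 libraries per group were sequenced. The labels do not say whether the libraries of a group came from separate cultures, so the p-values measure only the spread between these libraries, which may be technical. Expression was given in TPM, a unit that divides reads by transcript length and by the library total, so that levels of different genes can be set side by side. TPM keeps no depth, and the depth of the libraries is unknown here. The table summed to 768174 and 780527 TPM in the control libraries and to 772487 and 799166 TPM in the DMSO libraries.

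The 4 libraries were checked against marker genes. The oocyte gene Dppa3 stood at 11639, 15346, 10828 and 15216 TPM in control replicates 1 and 2 and DMSO replicates 1 and 2, an order of libraries kept in the text below. Markers of cumulus and granulosa cells summed to 3.59, 2.55, 4.96 and 3.73 TPM over 11 genes, with Cyp11a1 the most abundant and Amh and Inhba at 0. Markers of blood summed to 13.4, 4.11, 11.8 and 19.6 TPM over 6 genes, with Hba-a2 the most abundant and Hbb-bt at 0. Sperm markers summed to 2.84, 3.38, 13.5 and 8.57 TPM over 6 genes, with Prm2 the most abundant and Acr and Tnp2 at 0. Prm2 was called higher in DMSO. Tnp1 reached the mean of 1 TPM needed for the test only through the DMSO libraries, so no test is given for it. Oviduct markers summed to 123, 115, 64.4 and 92.4 TPM over 4 genes, and none of the 4 was at 0 in all libraries. The most abundant was Epcam, which embryos also express and which was called lower. Ovgp1 went the other way, with 17.9, 19.5, 26.2 and 33.2 TPM, higher in both DMSO libraries but not called. Foxj1 and Pax8 overlapped between groups. Markers of later embryos summed to 77.5, 59.8, 50.4 and 54.4 TPM over 7 genes, most of it Gata4. The sums of cumulus, blood and sperm markers each stayed below the level of Oog2 in every library. They did not stay below every member. In DMSO replicate 2 the blood sum of 19.6 TPM lay above Pramel6, at 15.7 TPM, and above scarcer members. The oviduct sum lay above Oog2 in both controls and in DMSO replicate 2. The 13 mitochondrial messenger RNAs summed to 82955, 96781, 118298 and 173391 TPM, higher in both DMSO libraries. The part that this or any marker difference had in the values of the family was not tested.

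In the DMSO group the 3 most abundant Pramel genes, Pramel7, Pramel4 and Pramel6, fell 3.38-fold to 5.78-fold. No Oog or Pramef gene passed the test, although Oog2, Oog4, Pramef25 and Pramef20 were higher in both DMSO libraries than in both controls. Of the 14 members with a mean of at least 1 TPM, which were tested on log2(TPM + 1) with limma at an adjusted p of 0.05, 3 were called lower and 0 higher, and 8 had an unadjusted p under 0.05. Over all 12038 genes tested, 14.1% were called lower and 6.42% higher, or 20.5% in either direction, and 4835 had an unadjusted p under 0.05. The members were higher in both DMSO libraries without overlap in 4 cases and lower in 5, beside 31.1% and 38.7% of all genes tested, or 69.8% in either direction. Their log2 fold changes were above 0 in 7 and below 0 in 7, with a median of 0.14, beside a median of -0.09 over all genes tested. By family name the medians were -1.75 for 5 Pramel, 1.23 for 3 Oog and 0.57 for 6 Pramef genes. The 3 calls were made again without DMSO replicate 2, and 0 of 3 without control replicate 1, control replicate 2 or DMSO replicate 1. In these pooled embryos, fewer cells or embryos with a transcript and less RNA of it per cell cannot be told apart.

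**Figure D1:**
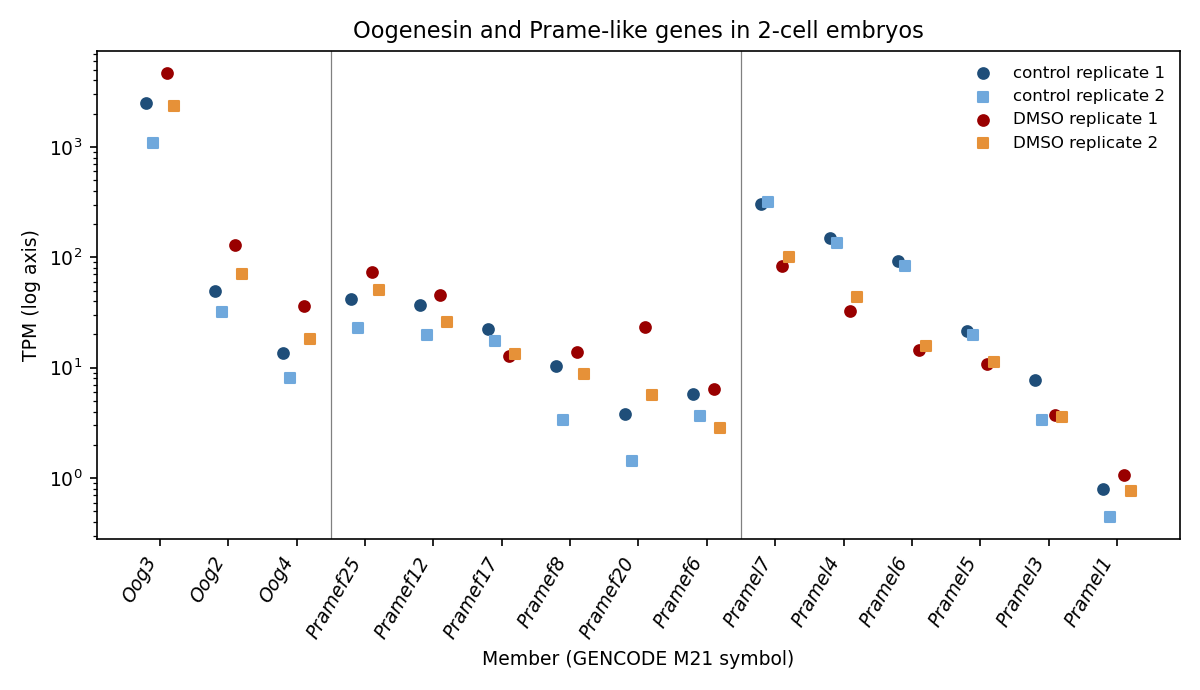
TPM of each member in each of the 4 libraries, on a log axis, 1 point per library. Pramel7, Pramel6 and Pramel4 lie lower in both DMSO libraries by 3.38-fold to 5.78-fold in the means, while Oog3 is the highest member in every library and its groups overlap.

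The 3 members called were Pramel genes on chromosomes 2 and 4. Pramel7 (chr2:87489087-87497093, minus strand, GRCm38), the most abundant Pramel gene, had 305 and 319 TPM in the control and 83.3 and 101 TPM in the DMSO libraries. Both DMSO libraries lay well below both controls, and the libraries within a group were close. The means were 312 ± 9.86 and 92.3 ± 12.6 TPM (SD, n = 2), and the log2 fold change was -1.75 (SE 0.249, adjusted p = 0.0181). Pramel6 (chr2:87506565-87510872, plus strand), its neighbour, had 91.8 and 83.2 TPM in the control and 14.6 and 15.7 TPM in the DMSO libraries. It had the largest fall of the 3, from a mean of 87.5 ± 6.06 to 15.1 ± 0.778 TPM (SD, n = 2) or 5.78-fold, and a log2 fold change of -2.45 (SE 0.260, adjusted p = 0.0181). The pair shares few words of sequence with other genes (8.6% of the 31-base words of Pramel7 and 1.1% of those of Pramel6), so few reads of the pair can be shared between copies. Their summed level was 396 and 402 TPM in the control and 97.9 and 117 TPM in the DMSO libraries, 3.72-fold lower.

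Pramel4 (chr4:144059126-144069327, plus strand), also known from pluripotent cells, had 149 and 133 TPM in the control and 32.9 and 44.0 TPM in the DMSO libraries. Its groups were apart, and it fell 3.67-fold, from 141 ± 10.8 to 38.4 ± 7.88 TPM (SD, n = 2), with a log2 fold change of -1.86 (SE 0.273, adjusted p = 0.0181). Pramel4 shares 91.5% of its 31-base words with other genes, 88.3% with Gm13102 alone, and its own value is therefore uncertain. Gm13102 itself had 32.8, 29.6, 12.7 and 11.6 TPM. Pramel4 and Gm13102 together summed to 182 and 163 TPM in the control and to 45.6 and 55.6 TPM in the DMSO libraries, 3.41-fold lower in the means. Pramel5 (chr4:144270633-144280488, minus strand), which shares 34.6% of its words with Pramel4, had 21.4 and 19.7 TPM in the control and 10.9 and 11.2 TPM in the DMSO libraries. Both DMSO libraries were lower, by 1.86-fold in the means, but the log2 fold change of -0.84 (SE 0.279, 95% interval -1.51 to -0.17) did not pass at an adjusted p of 0.0746.

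Where control replicate 1, control replicate 2 or DMSO replicate 1 was left out, limma called 0 genes of the whole table, with 3745, 2602 and 3078 genes at an unadjusted p under 0.05. With any library left out, the log2 fold changes lay between -2.52 and -2.38 for Pramel6, -1.89 and -1.61 for Pramel7 and -2.07 and -1.66 for Pramel4, with adjusted p between 0.0290 and 0.157. With no filter on low values the 3 genes also missed the threshold, at an adjusted p of 0.102.

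The remaining Pramel genes were scarce. Pramel3 on the X chromosome had 7.68 and 3.34 TPM in the control and 3.73 and 3.61 TPM in the DMSO libraries. Only control replicate 1 stood above the others, and the groups overlapped (log2 fold change -0.39, SE 0.416, adjusted p = 0.498). It shares 80.7% of its words with Gm15023, which had 2.54, 2.45, 2.16 and 2.57 TPM. Pramel1, a gene known from the testis, had 0.802, 0.446, 1.07 and 0.772 TPM and was not tested.

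The 250 bases before the RefSeq start (GRCm38.p6) are shown for Pramel6, the member with the largest fall, and for Pramel4, the most abundant called Pramel gene whose RefSeq start lies at the end of its GENCODE gene. The RefSeq start of Pramel7 lies 4675 bases inside its GENCODE gene, and its window is not shown. Motifs were searched on both strands and are in capitals where present. They were TATAAA (the TATA box), TAATTG and also TAATTA (homeodomain motifs), and the E-boxes CAGCTG and then CACGTG. Neither stretch holds any of them.
Pramel6, chr2:87506315-87506564, plus strand: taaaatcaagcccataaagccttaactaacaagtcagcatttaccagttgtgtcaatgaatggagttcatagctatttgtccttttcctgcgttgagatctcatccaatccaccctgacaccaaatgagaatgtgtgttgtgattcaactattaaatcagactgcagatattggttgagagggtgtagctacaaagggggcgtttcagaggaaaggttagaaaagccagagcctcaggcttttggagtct
Pramel4, chr4:144058875-144059124, plus strand: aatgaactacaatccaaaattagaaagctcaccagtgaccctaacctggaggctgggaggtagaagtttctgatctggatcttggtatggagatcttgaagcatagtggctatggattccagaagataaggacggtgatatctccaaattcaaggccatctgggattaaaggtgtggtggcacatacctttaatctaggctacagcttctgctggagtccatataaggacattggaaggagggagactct
Over the 250 bases before the start, Pramel4 and Pramel5 were 81.5% identical.

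**Figure D2:**
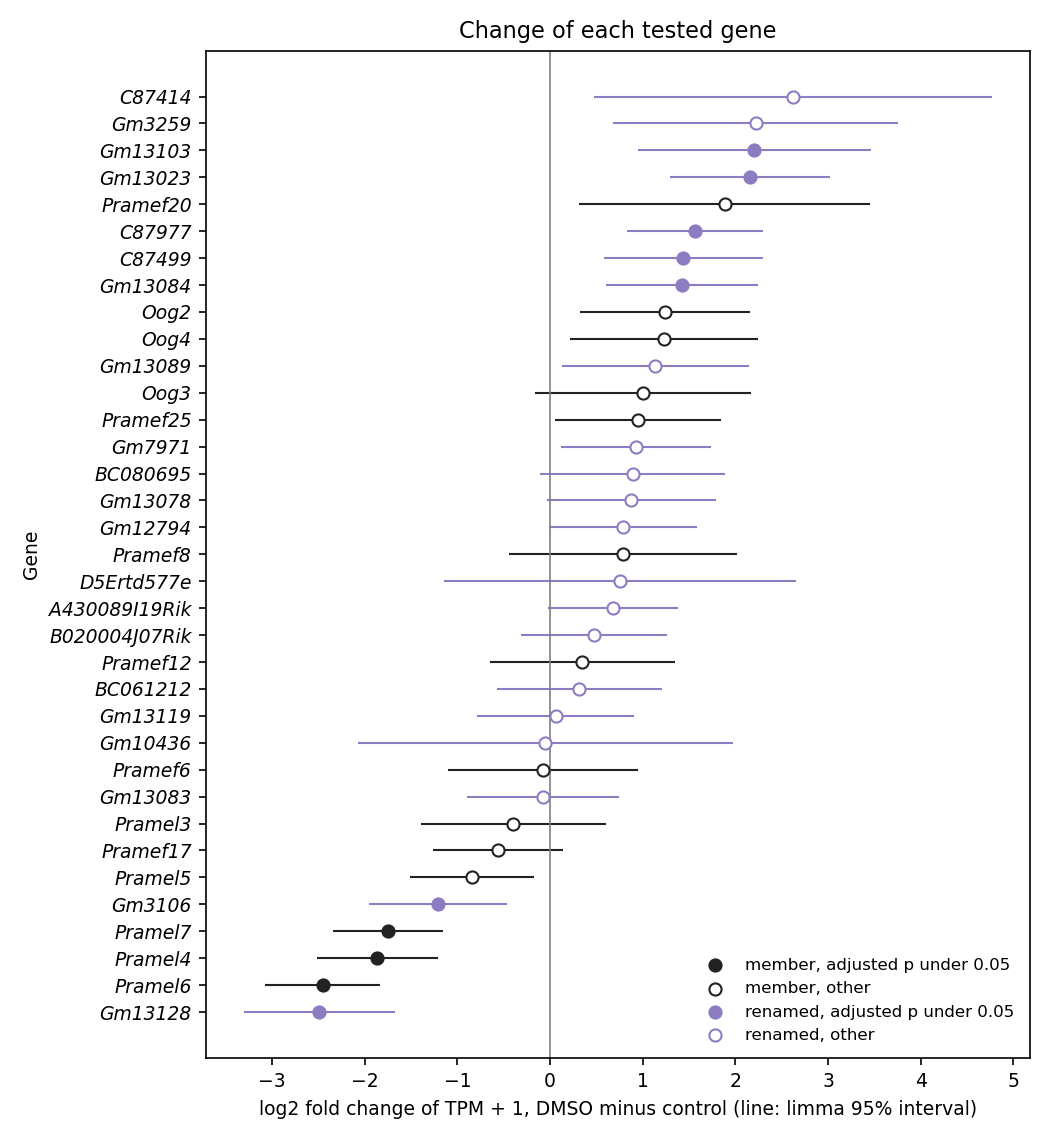
Log2 fold change, DMSO minus control on log2(TPM + 1), with 95% intervals from limma. Shown are the 14 tested members and the 21 tested genes that RefSeq has since named Pramel (labelled renamed). Among members, Pramel6, Pramel7 and Pramel4 lie farthest below 0 and are the only members called. The Oog genes lie between 1.001 and 1.24 with none called. Of the renamed genes, 5 were called higher and 2 lower, and Gm13128 lies lowest of all genes shown, at -2.49.

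Among the oogenesins, Oog3 (chr4:144157557-144162663, minus strand) was by far the most abundant member. It had 2489 and 1095 TPM in the control and 4679 and 2334 TPM in the DMSO libraries, ranks 27, 80, 19 and 31 among all genes of the 4 libraries. Replicate 1 exceeded replicate 2 by 2.27-fold in the control and 2.00-fold in the DMSO group, and DMSO replicate 2 lay below control replicate 1, so the groups overlapped. The means of 1792 ± 986 and 3506 ± 1658 TPM (SD, n = 2) gave a log2 fold change of 1.001 (SE 0.488, 95% interval -0.17 to 2.17), which did not pass at an adjusted p of 0.171. With a library left out it lay between 0.41 (without control replicate 2) and 1.59 (without control replicate 1), and it was 0.50 without DMSO replicate 1 and 1.50 without DMSO replicate 2. Of its 31-base words 22.9% occur in Gm4350, not a row of the table.

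Oog2 (chr4:144190719-144196934, plus strand), the neighbour of Oog3, had 49.9 and 32.3 TPM in the control and 130 and 71.0 TPM in the DMSO libraries. Both DMSO libraries were above both controls, by 2.45-fold in the means (41.1 ± 12.5 and 101 ± 42.0 TPM, SD, n = 2), but the log2 fold change of 1.24 (SE 0.383, 95% interval 0.32 to 2.16) did not pass at an adjusted p of 0.0620. Of the settings that do not use replicate numbers, it passed after quantile normalization (adjusted p = 0.0374), among genes of at least 5 TPM (adjusted p = 0.0448) and without DMSO replicate 2 (adjusted p = 0.0450). Oog2 shares 39.6% of its words with Gm13084, and the 2 genes together summed to 99.8, 65.5, 270 and 159 TPM, higher in both DMSO libraries. Oog4 (chr4:143437164-143450324, minus strand) had 13.6 and 8.01 TPM in the control and 36.3 and 18.4 TPM in the DMSO libraries. Its groups did not overlap, its sequence is nearly its own (3.4% of words shared), and its log2 fold change of 1.23 (SE 0.424, 95% interval 0.22 to 2.25) did not pass at an adjusted p of 0.0804. Without DMSO replicate 1 the log2 fold changes of Oog2 and Oog4 were 0.81 and 0.76, and without DMSO replicate 2 they were 1.67 and 1.71.

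Oog1 (chr12:87602688-87608850, plus strand), known to bind Ras proteins and their effector Ralgds, was listed at 0 TPM in every library. This value is uncertain, since 93.4% of its 31-base words occur in other genes and 90.2% in Gm2042. Gm2042 itself had 102 and 83.5 TPM in the control and 294 and 182 TPM in the DMSO libraries. Reads of Oog1 and Gm2042 cannot be told apart for most of their length, and the level of Oog1 alone is not known.

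The bases before the RefSeq start of the 4 oogenesins are shown because each holds CAGCTG, an E-box motif, close to the start. The first base of the motif lay at -43 in Oog2, -42 in Oog3, -41 in Oog4 and -19 in Oog1, counting back from the start. These windows were chosen after the matches were seen. Capitals mark the searched motifs (CAATTA is TAATTG on the other strand), and Oog3 is shown over 250 bases, the others over 60.
Oog3, chr4:144162652-144162901, minus strand: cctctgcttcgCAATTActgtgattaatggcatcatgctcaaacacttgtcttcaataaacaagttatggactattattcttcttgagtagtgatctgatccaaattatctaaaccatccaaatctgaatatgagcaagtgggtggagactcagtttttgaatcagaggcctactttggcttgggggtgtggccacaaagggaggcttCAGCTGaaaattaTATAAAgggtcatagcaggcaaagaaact
Oog2, chr4:144190657-144190716, plus strand: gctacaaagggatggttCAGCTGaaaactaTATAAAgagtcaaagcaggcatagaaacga
Oog4, chr4:143450325-143450384, minus strand: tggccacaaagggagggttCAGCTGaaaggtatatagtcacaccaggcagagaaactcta
Oog1, chr12:87602605-87602664, plus strand: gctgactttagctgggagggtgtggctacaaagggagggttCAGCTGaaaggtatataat
CAGCTG was found in the promoters (250 bases before to 50 after the start) of 4 of 4 Oog genes and 2 of 12 Pramel and Pramef genes, against 16.3% of 32851 RefSeq promoters. TATAAA was found in Oog2, Oog3 and the pseudogene Pramel, 18.8% of 16 promoters of members against 13.6% of all. TAATTG was found in Oog3, Oog4 and Pramef12, 18.8% against 8.0%. TAATTA and CACGTG were in none of these 16 windows and in 5.29% and 7.15% of all promoters. The motifs were not limited to oogenesins. Of 25 promoters of genes that RefSeq has since named Pramel, 48.0% held CAGCTG. It lay before the start in C87499 (-43), Gm13084 (-41), Gm13089 (-52) and C87977 (-83), and after the start, between 24 and 37, in the 8 others with a match. TATAAA was also held by 48.0%. Among the same 25, TAATTG was found in 32.0% and the related TAATTA in 20.0%, and the E-box CACGTG in 0. TAATTG and also TAATTA differ only in their last base, and no motif searched contains another. A match describes letters, not a bound site. The 250 bases before the start were between 64.2% and 76.9% identical over the 6 pairs of oogenesins, and between 44.8% and 61.0% over the 113 pairs that are neither 2 oogenesins nor Pramel4 with Pramel5, except for Pramef17 with Pramel7 at 78.7%, where the window of Pramel7 lies inside its GENCODE gene.

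The 6 Pramef genes had the lowest sum of the 3 families in the controls and in the mean of the DMSO libraries. Pramef25 (chr4:143948580-143951016, minus strand; Pramel16 in RefSeq) had 42.1 and 22.9 TPM in the control and 73.5 and 50.4 TPM in the DMSO libraries. Its groups did not overlap, with means of 32.5 ± 13.6 and 61.9 ± 16.3 TPM (SD, n = 2), and its log2 fold change of 0.95 (SE 0.375, adjusted p = 0.110) did not pass, and was 0.52 without control replicate 2 and 1.38 without control replicate 1. It shares 79.4% of its words, 48.4% with Gm13057. Pramef12 (chr4:144391674-144408464, minus strand; Pramel13 in RefSeq), known for its part in the maintenance of spermatogonial stem cells, had 37.2 and 19.6 TPM in the control and 45.9 and 26.2 TPM in the DMSO libraries. The groups overlapped (log2 fold change 0.35, SE 0.417, adjusted p = 0.554). Its sequence is unique in 31-base words with both strands compared, so its transcripts share none with the antisense gene within it.

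Pramef17 (chr4:143991119-143994369, minus strand; Pramel14 in RefSeq) had 22.4 and 17.3 TPM in the control and 12.9 and 13.3 TPM in the DMSO libraries. It was lower in both DMSO libraries, by 1.52-fold in the means, without passing (log2 fold change -0.56, SE 0.292, adjusted p = 0.195). It shares 80.9% of its words with Gm13128, and the 2 genes together summed to 76.2 and 53.8 TPM in the control and to 18.6 and 21.9 TPM in the DMSO libraries. Their sum was 3.21-fold lower in the means, and how reads were divided between the copies was not tested. Pramef20 had 3.81 and 1.44 TPM in the control and 23.2 and 5.62 TPM in the DMSO libraries. Its DMSO libraries differed from each other by 4.12-fold, and its log2 fold change of 1.88 (SE 0.656, 95% interval 0.31 to 3.45, adjusted p = 0.0823) did not pass. With a library left out it ranged from 0.95 without DMSO replicate 1 to 2.82 without DMSO replicate 2, where it passed (adjusted p = 0.0383).

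Pramef8 (10.4, 3.33, 13.9 and 8.81 TPM) and Pramef6 (5.81, 3.65, 6.36 and 2.87 TPM) overlapped between groups. Their log2 fold changes were 0.78 and -0.08, with adjusted p of 0.283 and 0.903. That of Pramef8 was 0.086 without control replicate 2 and 1.48 without control replicate 1.

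The members differed in how close the libraries of a group were. The higher library exceeded the lower by 1.05-fold to 1.11-fold in the control group for Pramel7, Pramel6, Pramel4 and Pramel5. For Oog3, Oog2, Oog4, Pramef25, Pramef12, Pramef20 and Pramef8 it did so by 1.55-fold to 3.13-fold. In the DMSO group the same 4 Pramel genes spread by 1.03-fold to 1.34-fold, and these 7 Oog and Pramef genes by 1.46-fold to 4.12-fold. Other members departed from this split by name. Pramel3 spread by 2.30-fold in the control and 1.03-fold in the DMSO group, Pramel1 by 1.80-fold and 1.39-fold, Pramef17 by 1.29-fold and 1.03-fold, and Pramef6 by 1.59-fold and 2.21-fold. These are descriptions over 2 libraries a group and were not tested.

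**Figure D3:**
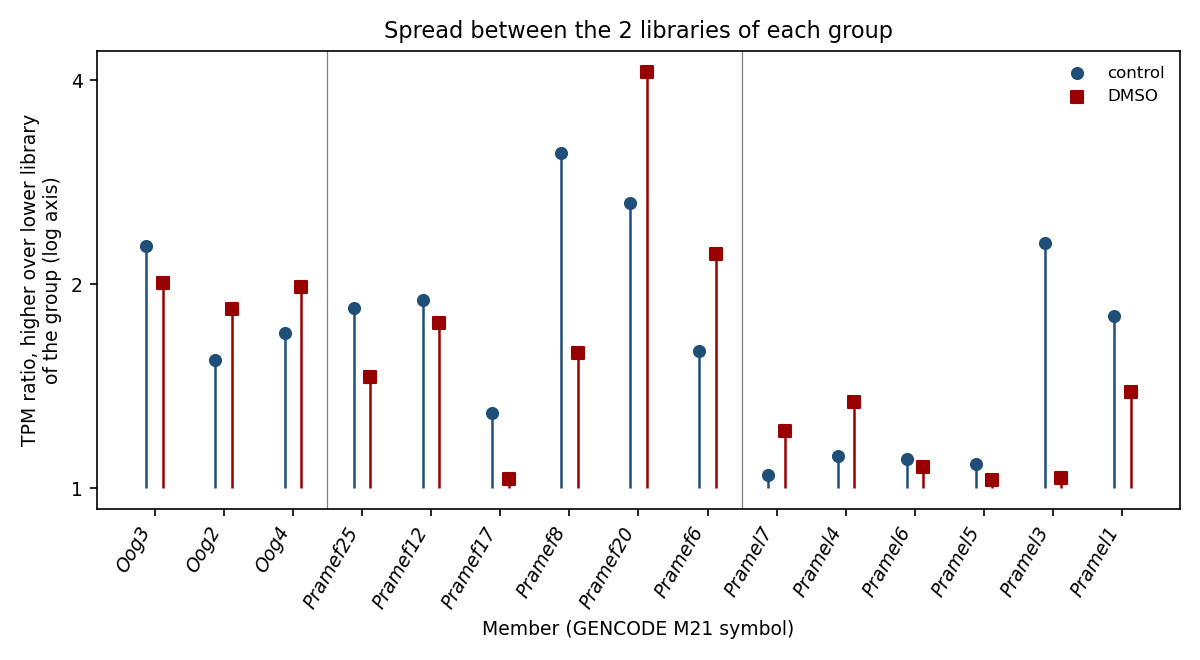
Ratio of the higher to the lower library within each group for the 15 members above 0 TPM, the untested Pramel1 included, control and DMSO shown apart. Pramel7, Pramel6, Pramel4 and Pramel5 stay at or below 1.34-fold in both groups, as does Pramef17, while Oog3, Oog4 and Pramef20 reach 1.69-fold or more in both and Pramel3 reaches 2.30-fold in the control group.

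Summed over the 4 Oog genes, expression was 2552 and 1135 TPM in the control and 4845 and 2423 TPM in the DMSO libraries. The means of 1844 ± 1002 and 3634 ± 1713 TPM (SD, n = 2) differed by 1.97-fold, the libraries overlapped, and Oog3 held nearly all of the sum. Without Oog3 the sum was 63.4, 40.3, 167 and 89.4 TPM, higher in both DMSO libraries. The 7 Pramel genes summed to 575 and 559 TPM in the control and 146 and 176 TPM in the DMSO libraries, 3.51-fold lower in DMSO and far outside the spread within a group. The 6 Pramef genes summed to 122, 68.3, 176 and 107 TPM, with overlap. Pramel and Pramef together summed to 697, 627, 322 and 284 TPM, 2.18-fold lower. All 17 members summed to 3249, 1762, 5167 and 2707 TPM, a sum set by Oog3, and its log2 ratio of 0.65 turned to -0.73 without that gene.

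Of the members, 12 lie in a cluster of 1014.0 kb on chromosome 4 (chr4:143394428-144408464), the pair Pramel6 and Pramel7 on chromosome 2, Pramel3 and the pseudogene on the X chromosome, and Oog1 on chromosome 12. Within the cluster, Pramel4 was called lower. At lower coordinates its neighbour Pramef17 had a log2 fold change of -0.56, and at higher coordinates Oog3, lying 88.2 kb farther on, and Oog2, another 28.1 kb on, had 1.001 and 1.24. None of these 3 neighbours was called, and the groups of Oog3 overlapped. The 12 members in the cluster summed to 2845, 1357, 5066 and 2587 TPM, and without Oog3 to 356, 262, 387 and 253 TPM, with overlap between groups.

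RefSeq has since renamed further genes of the table to Pramel symbols, and 32 of them, not members by the rule, were looked up. Of these, 21 were tested and 5 were called higher and 2 lower, beside 6.42% and 14.1% of all genes tested, and 9 were listed at 0 in all libraries, each sharing over 75% of its words with other genes. All 7 calls were lost with no filter and without control replicate 1, control replicate 2 or DMSO replicate 1, where limma called 0 genes of the table, and those of Gm3106 and C87499 also without a trend. The cluster on chromosome 4 holds 11 of them between its members. Gm13023 (Pramel25) had 50.4 and 31.2 TPM in the control and 230 and 142 TPM in the DMSO libraries, a rise of 2.16 on the log2 scale (SE 0.361, adjusted p = 0.0209). Gm13103 (Pramel27) rose as well, from 30.4 and 12.1 to 137 and 62.7 TPM (log2 fold change 2.21, adjusted p = 0.0353, and 1.58 to 2.83 with a library left out, the ends being without control replicate 2 and without control replicate 1). C87977 (Pramel29), which lies 9.8 kb past Oog2, rose from 104 and 75.8 to 320 and 219 TPM (log2 fold change 1.57, adjusted p = 0.0249). Gm13023 shares 54.3% of its words with other genes, 37.5% with C87977 alone. Gm13103 shares 57.6% and C87977 shares 40.2%. The values of these genes are therefore uncertain one by one.

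Gm13128 (Pramel30), the copy that shares most of its words with Pramef17, fell from 53.8 and 36.4 to 5.78 and 8.61 TPM (log2 fold change -2.49, adjusted p = 0.0181). Over the 23 members and renamed genes of the cluster, 21 were tested, 4 were called higher and 2 (Pramel4 and Gm13128) lower, against the same background of 6.42% and 14.1%, and 15 had a log2 fold change above 0. Of the 6 below 0, Gm13083 turned to 0.053 after quantile normalization. The 32 renamed genes summed to 1029 and 635 TPM in the control and 2154 and 1205 TPM in the DMSO libraries, 2.02-fold higher. With them counted as Prame-like genes, the log2 ratio of the Pramel and Pramef sum turned from -1.13 to 0.41, so the direction of this sum changed with the names taken.

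**Figure D4:**
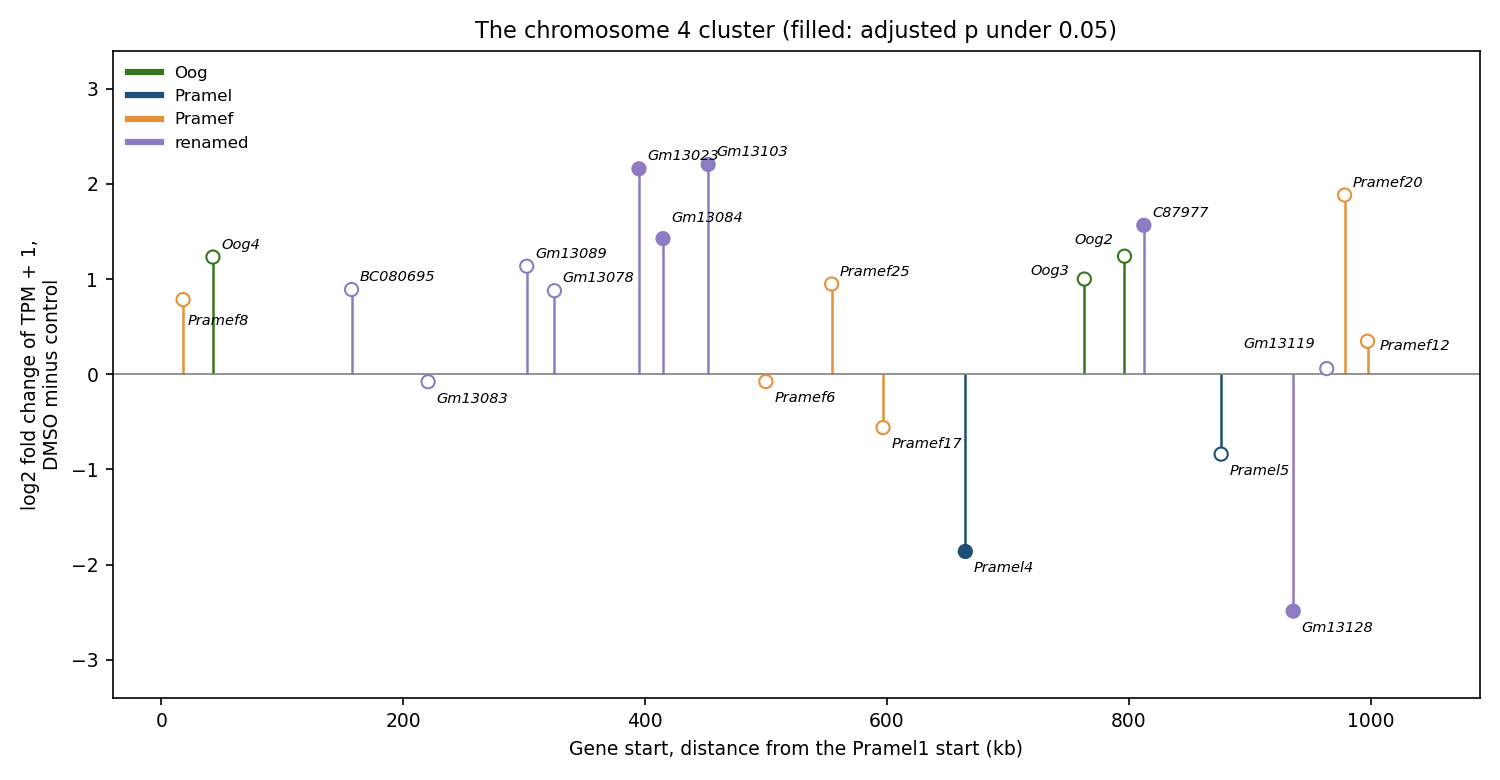
Log2 fold change, DMSO minus control, of members and renamed genes along the cluster on chromosome 4, by distance in kb from the start of Pramel1. Of 21 genes tested, 15 lie above 0 and 6 below, and the genes called lower, Pramel4 and Gm13128, each have a neighbour below 0 (Pramef17 and Pramel5) and a neighbour above 0 (Oog3 and Gm13119), none of which was called.

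Genes whose products are known to work with PRAME proteins were listed apart. Of 15 such genes, 14 were tested with limma and 0 were called, while 2 (Elob and Cul2) had an unadjusted p under 0.05. Over all 12038 genes tested, 20.5% were called and 4835 had an unadjusted p under 0.05. Cul2, the scaffold of the ligase, had 7.96 and 9.39 TPM in the control and 4.22 and 3.86 TPM in the DMSO libraries (log2 fold change -0.94, adjusted p = 0.0742). Its adaptor Elob had 547 and 686 TPM in the control and 212 and 379 TPM in the DMSO libraries (log2 fold change -1.11, adjusted p = 0.0604). Both were lower in both DMSO libraries without passing. Uhrf1, the target of Pramel7, had 17.7, 11.7, 27.6 and 13.8 TPM, with overlap between groups (log2 fold change 0.42, SE 0.409, adjusted p = 0.466). The median log2 fold change of the list was -0.02.

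Set beside genes known from the oocyte, the oogenesins had log2 fold changes of 1.001 to 1.24. Of 27 oocyte genes tested, 8 were called higher and 1 lower, beside 6.42% and 14.1% of all genes, and the median of their log2 fold changes was 0.95. Nobox, 1 of the 8, averaged under 1 TPM in the control and was tested only through its DMSO values. Its call is therefore set aside. Among the other genes called higher, Bmp15 (2.36), Bcl2l10 (2.36), Oosp2 (1.61) and Btg4 (1.53) had the largest log2 fold changes. Zar1l (-1.38) was the gene called lower. Another list held genes used at the 2-cell stage, many of them switched on then, but also Obox genes that the oocyte stores, such as Obox1 and Obox5. Of its 22 genes tested, 7 were called higher and 4 lower, with a median of 0.80. Obox5 (2.33), Zfp352 (2.00), Tcstv1 (1.84) and Obox1 (1.73) rose, and Obox6 (-1.86), Pdcd2l (-1.18), Eif1a (-1.14) and Tdpoz2 (-1.11) fell. The falls of Pramel6, Pramel7 and Pramel4 were as large as or close to the largest fall in these lists, and the difference between lists was not tested.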

How the data were processed

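The authors assigned reads to Ensembl transcripts of GRCm38 (mm10) by kallisto, summed transcripts per gene with tximport and deposited TPM values. Their test was DESeq2 on estimated counts, which were not used here. The submitters' processing notes also name STAR, SAMtools and bedtools. Kallisto divides reads shared by near-identical copies by an estimate. Sources differ on single-end or paired-end reads of 50 bases.

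Names came from GENCODE M21 (29668 of 30049 genes named, 381 without a name) and RefSeq GRCm38.p6 (49 of 52 Prame-like and oogenesin symbols matched). Promoters came from RefSeq and matched 16 members. The 12038 genes that averaged 1 TPM or more over the libraries were fitted together, as log2(TPM + 1), in limma (version 3.58.1, R 4.3.3) by lmFit and eBayes with a trend and no block, and p-values were adjusted over all of them (Benjamini-Hochberg, threshold 0.05). Fold changes on this scale understate those of low genes. An exact permutation test of 2 against 2 libraries cannot give a p below 0.33. On simulated data with 200 of 12038 genes changed by a log2 of 2, 193 were recovered and 4 others called, and 0 were called with none changed. The simulated noise was independent between libraries and genes, with a spread set by the mean level alone. It held no deviation shared across the genes of a library, so it does not measure the error rate of the real calls. Shared sequence was the share of 31-base words of a gene's transcripts found in those of other genes. Members averaging 1 TPM or more were named, with full statistics from 10 TPM or when called. Of the partner list, Cul2, Uhrf1 and any called gene were named, and of the oocyte and 2-cell lists up to 4 called genes each way, and other genes that are named were chosen after their values were seen. Members, lists and tests were chosen with earlier results of these data known. Alternatives were quantile normalization, median-ratio scaling, a pseudocount of 0.1, no trend, no filter, a filter at 5 TPM, a replicate block, other sets of names in the sums and leaving out each library. The fit of renamed genes and the sums of copies that share sequence were added after seeing the data. Python 3.11.15, pandas 2.3.3, numpy 2.4.6, Biopython 1.88 and matplotlib 3.10.9 were used for other steps.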

Additional observations from a re-analysis of the deposited data

How the results depend on the processing

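Over the 14 tested members, 85 of the values under other settings kept direction and side of the threshold, 8 newly passed and 3 no longer passed. With a library left out, 40 were kept, 9 no longer passed, 2 newly passed and 5 changed direction. These were Pramef6 (0.20 without control replicate 1 and 0.39 without DMSO replicate 2, range -0.54 to 0.39), Pramef12 (-0.10 without control replicate 2 and -0.05 without DMSO replicate 1, range -0.10 to 0.79) and Pramel3 (0.11 without control replicate 1, range -0.90 to 0.11). The lone library of a group is then assumed to vary like the others.

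Genes called over the table numbered 2470 (773 higher and 1697 lower), 0 with no filter (5368 at an unadjusted p under 0.05) and 0 to 1883 with a library left out, where 0 were called without control replicate 1 (3745 at an unadjusted p under 0.05), control replicate 2 (2602) or DMSO replicate 1 (3078). Quantile normalization gave 1076 higher and 1121 lower. With no filter, 0 members were called lower, and 0 oocyte and 0 2-cell genes were called. With a library left out, members called numbered 0 to 2 higher and 0 to 3 lower, partner genes 0 to 1 lower, oocyte genes 0 to 6 and 2-cell genes 0 to 10. Members called higher were 1 (Oog2) at a mean of at least 5 TPM and 1 after quantile normalization, and 1 partner gene was called lower at 5 TPM. The cause of these changes was not tested.

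Replicate numbers are shared by the groups, but nothing in the labels says that they mark a shared culture. Deviations of same-numbered libraries correlated at 0.354 across genes. A block for the replicate number gave 5132 genes called, among them 5 members higher (Oog3, Oog2, Oog4, Pramef20 and Pramef25, adjusted p from 0.00311 to 0.0147), 4 members lower, 4 partner genes lower and 20 oocyte genes.

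The log2 ratio of the Oog sum was 0.98 (0.39 to 1.68 with a library left out). That of the Pramel and Pramef sum was -1.13 (-1.22 to -1.04), -0.73 without Pramel7, its most abundant member, and 0.41 by RefSeq symbols. That of all members was 0.65 (0.11 to 1.16) and -0.73 without Oog3. Among renamed genes, Gm10436 turned to 0.16 after quantile normalization and 1.41 without DMSO replicate 2 (range -1.51 to 1.41), and Gm13083 to 0.053 after quantile normalization, 0.16 without control replicate 1 and 0.19 without DMSO replicate 2 (range -0.35 to 0.19). Gm13119 turned to -0.29 without control replicate 2 and -0.13 without DMSO replicate 1 (range -0.29 to 0.41), and D5Ertd577e to -0.02 and -0.31 in the same settings (range -0.31 to 1.82). TPM keeps no depth, so no counting error is given for low members.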

Other observations

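The span of the chromosome 4 cluster also holds 9 unprocessed pseudogenes, all scarce. Of the 4 with a mean of at least 1 TPM, 3 (Gm13058, Gm13046 and Gm13041) reached it only through the DMSO libraries, so no test is given for them. Gm13058 had 0.663 and 0.698 TPM in the control and 4.34 and 2.69 TPM in the DMSO libraries. Gm13046 had 1.27 and 0.359 TPM in the control and 5.47 and 3.71 TPM in the DMSO libraries. Gm13041 had 0.919 and 0.590 TPM in the control and 5.43 and 2.01 TPM in the DMSO libraries. Gm13106 had 3.98, 2.26, 2.56 and 1.58 TPM, with overlap.

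Outside the cluster, the renamed gene C87414 (Pramel34) had 57.7 and 10.8 TPM in the control and 336 and 77.3 TPM in the DMSO libraries. The higher library exceeded the lower by 5.35-fold in the control and 4.35-fold in the DMSO group. A log2 fold change of 2.63, the largest among members and renamed genes tested, did not pass (adjusted p = 0.0793). It was 1.47 without control replicate 2, 1.57 without DMSO replicate 1, 3.78 without control replicate 1 and 3.68 without DMSO replicate 2. Gm3106 (Pramel38) was called lower, with 158 and 102 TPM in the control and 60.7 and 48.6 TPM in the DMSO libraries (log2 fold change -1.21, adjusted p = 0.0411). It shares 90.1% of its words with other genes, so its own value is uncertain. Its call was lost after quantile normalization (adjusted p = 0.0669), without a trend (0.0582) and with any library left out, without DMSO replicate 2 (0.0999) included. Gm13084 (Pramel26), within the cluster, and C87499 (Pramel32), outside it, were called higher, with log2 fold changes of 1.43 and 1.44, and C87499 lost its call without a trend (adjusted p = 0.0529). Gm13084 shares 51.9% of its words with other genes, and C87499 shares 1.7%.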
